A study of Homo sapiens with 4 samples.

Results

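The 48 genes described here build ribosomes: they encode RNA polymerase I and its factors, the small nucleolar ribonucleoproteins (snoRNPs) that modify ribosomal RNA, and the proteins that assemble the small and the large ribosomal subunit. They were taken by gene symbol from a fixed list, and all 48 were found, each in 1 row of a table of 57773 genes. The table compares myeloma cells treated with 1 µM OSSL_325096 (a compound of which the labels give the code alone) with cells given the solvent DMSO. RNA sequencing libraries were made from poly(A)-selected RNA of the established human myeloma lines KMS12PE and KMS11, 1 library per line and treatment, which gives 2 libraries from different lines on each side of the comparison. The table gives each gene 1 log2 fold change over both lines, with the p-value of the authors' own model and an RPKM level, a read count scaled to transcript length and library size that is averaged over the treatment with the higher mean. A positive fold change is read as a higher level with OSSL_325096, because the name of the table puts that treatment ahead of DMSO; the columns themselves give no direction. Values of single libraries, the level in the other treatment group, the length of treatment and the depth of each library were not analysed here, so no value can be split by line and the spread between cultures cannot be shown.

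Ribosomes are made in the nucleolus. RNA polymerase I transcribes a long precursor, box C/D snoRNPs methylate it and box H/ACA snoRNPs turn chosen uridines into pseudouridine, a large complex called the small-subunit processome folds and cuts it, and separate sets of factors mature each subunit before export to the cytoplasm. Ribosomal RNA makes up most of the RNA of a growing cell, and many genes of proteins that make ribosomes are known targets of the transcription factor MYC, which is highly active in multiple myeloma, a cancer of antibody-secreting plasma cells.

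Most of the 48 genes had small positive fold changes. In the authors' deposited table, 44 had a log2 fold change above 0 and 4 below, where 51% of the 11324 genes with at least 1 RPKM were above 0. All 48 passed that minimum. The median was 0.33 over the 48 genes (quartiles 0.16 and 0.56) and 0.01 over all genes tested. At least 1.5-fold higher were 10 of the 48 genes, or 20.8%, against 4.95% of all genes tested. None of the 48 was 1.5-fold lower, against 4.95% of all genes tested. By rank, 17 of the 48, or 35.4%, stood in the top decile of all fold changes. Only NOP16 was at least 2-fold higher, where 0.989% of all genes tested were.

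No single gene passed a test. In the authors' deposited table a false discovery rate under 0.05 was given to 0% of the 23130 genes with a fold change. With Benjamini-Hochberg adjustment recomputed over the 11324 genes, 0% passed as well, and the adjusted p from the authors' model was 0.999909 for each of the 48. An unadjusted p under 0.05 was given to 0.0442% of the 11324 genes, to 0.0389% of the 23130 and to 0 of the 48, whose smallest was 0.332 (NOP16). The implied standard error, the size of a log2 fold change over the normal quantile of its p-value, ran from 0.86 to 1.20 over the 48 genes with a median of 0.96. It holds exactly for a normal test alone, and the test used is not stated. Over all genes tested its median was 1.10, while the quartiles of their log2 fold changes were -0.21 and 0.22. The errors are thus wide beside the spread of the fold changes. With no difference at all, well-scaled p-values would fall under 0.05 in a share of about 0.05 of genes. The share here, 0.0442%, is far smaller, so the p-values run large. The reason was not tested. Both treatments were run in the same 2 lines, and no source used here says whether the model set each treated library against the DMSO library of its own line, so these errors may hold the difference between the lines. Among genes chosen as markers of the lines, CCND1, FGFR3 and MAF had implied standard errors of 1.83 or more, above all of the 48. WHSC1, also chosen as a line marker, had 1.04, within the range of the 48. The part of the lines in the errors was not tested. At the median of the 48 genes, 0.96, only a 3.69-fold difference would bring an unadjusted p to 0.05. The absolute log2 fold change exceeded its implied standard error in 0 of the 48 genes. The directions below are therefore descriptions of the deposited values.

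**Figure D1:**
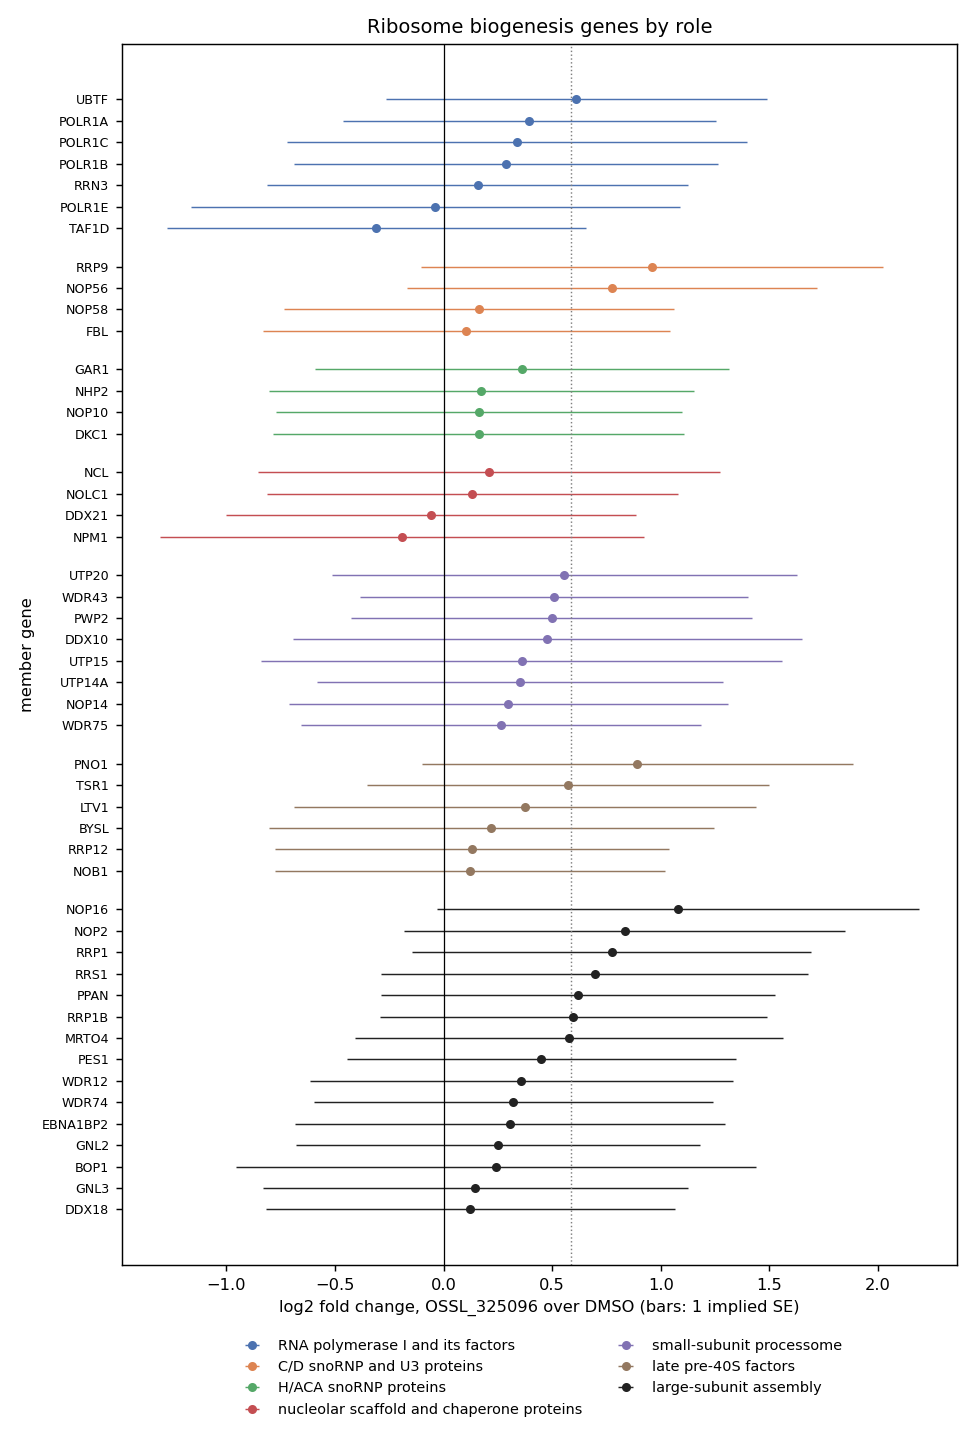
Log2 fold change of OSSL_325096 over DMSO for the 48 genes, grouped by role and coloured by group; bars are 1 implied standard error and the dotted line marks 1.5-fold. All 15 large-subunit and all 8 processome genes lie right of 0, NOP16 is farthest right at 1.08, and every bar crosses 0.

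**Figure D2:**
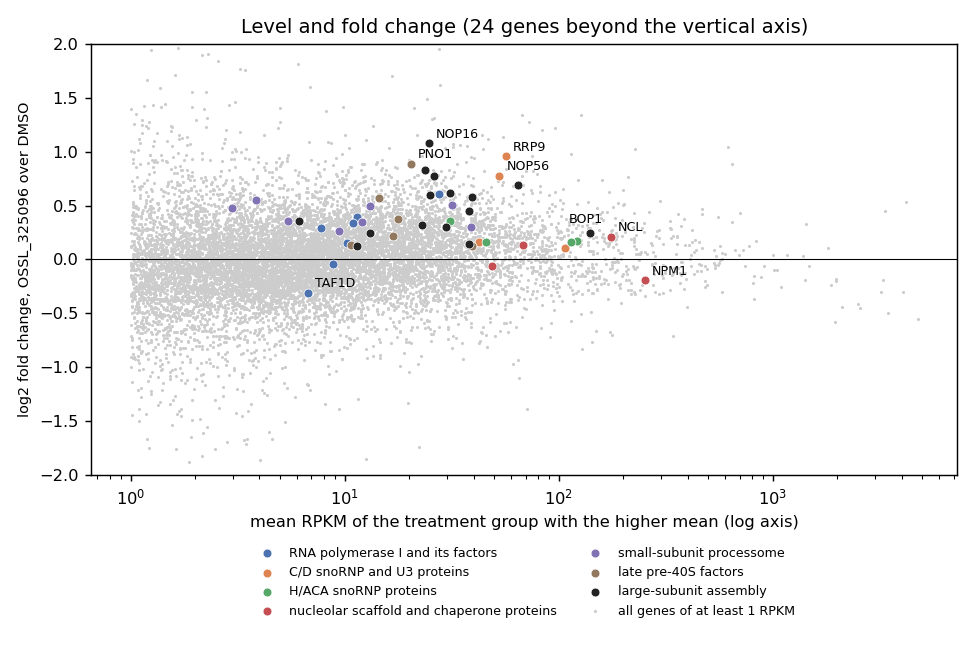
Mean RPKM in the treatment with the higher mean (log axis) against log2 fold change for the 48 genes, coloured by role, and for all 11324 genes tested in grey; 24 genes lie beyond the vertical axis. The coloured points lie mostly above 0 over their whole range, 2.98 to 253 RPKM, and NPM1, the most abundant, lies below 0.

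The choice of genes did not use their promoters, which were compared by sequence. The E-box CACGTG is the sequence that MYC and its partner MAX bind, and several other factors bind it too. It reads the same on both strands, and it was searched in RefSeq promoter windows on GRCh38.p14, from 250 bases before to 50 bases after the annotated start of transcription. A window was matched for 40 of the 48 genes. It held an E-box in 16 of the 40 (40%), in 10.7% of the 8007 genes tested with a window and in 7.43% of all 27305 windows. The shares lay close together upstream of the start and far apart at it. E-boxes wholly upstream of the start were found in 10% of the 40 promoters, against 9.45% of the 8007. E-boxes that cross or follow the start were found in 12 of the 40 (30%), against 1.57% of the 8007 and 1.10% of all windows. Such E-boxes are not particular to the 48: 13 of 103 ribosome biogenesis genes outside them (12.6%) had one. The first base of these 12 E-boxes lay between position -5 and position 36, counted from 1 at the first transcribed base. The bases after the start were added to the search once the upstream count had been seen. A match is a stretch of letters and does not show that a factor binds there.

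Promoters of 3 genes are shown to place the E-box, in capitals, in windows that end 20 bases after the start. RRP9 has an E-box across its start, NOP16, the gene with the highest fold change, has none in its window, and UTP20 has one just upstream of its start.
RRP9 (chr3:51941885-51942154, minus strand): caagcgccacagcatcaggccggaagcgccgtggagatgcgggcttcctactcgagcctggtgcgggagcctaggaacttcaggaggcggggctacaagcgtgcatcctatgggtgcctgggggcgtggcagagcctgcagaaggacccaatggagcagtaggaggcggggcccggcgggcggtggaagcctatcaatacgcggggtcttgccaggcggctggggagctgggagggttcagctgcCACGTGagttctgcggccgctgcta
NOP16 (chr5:176388579-176388848, minus strand): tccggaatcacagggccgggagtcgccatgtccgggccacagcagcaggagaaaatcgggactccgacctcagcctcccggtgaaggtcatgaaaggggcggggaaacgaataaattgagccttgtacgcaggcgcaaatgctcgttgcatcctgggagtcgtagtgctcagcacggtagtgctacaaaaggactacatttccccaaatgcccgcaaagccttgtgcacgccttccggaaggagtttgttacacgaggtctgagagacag
UTP20 (chr12:101279855-101280124, plus strand): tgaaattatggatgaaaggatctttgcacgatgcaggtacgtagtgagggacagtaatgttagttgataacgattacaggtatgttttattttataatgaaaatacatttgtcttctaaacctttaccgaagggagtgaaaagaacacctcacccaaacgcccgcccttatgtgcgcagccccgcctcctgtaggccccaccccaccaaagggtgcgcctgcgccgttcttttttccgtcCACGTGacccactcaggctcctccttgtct

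The 12 E-boxes at or after the start are shown with up to 10 bases on each side, in falling order of the gene's log2 fold change, to let their surroundings be compared. The E-box is in capitals and coordinates are on GRCh38.p14.
RRP9 (chr3:51941894-51941919, minus strand): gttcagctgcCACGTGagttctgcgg
PNO1 (chr2:68157887-68157912, plus strand): tgcagctgcgCACGTGtttcagccgg
NOP2 (chr12:6568242-6568266, minus strand): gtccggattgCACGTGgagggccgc
MRTO4 (chr1:19251809-19251834, plus strand): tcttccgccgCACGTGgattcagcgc
WDR43 (chr2:28894660-28894685, plus strand): cacggacgaaCACGTGgctgcagcgg
PWP2 (chr21:44107390-44107415, plus strand): agctgcggcaCACGTGcgacggccgt
PES1 (chr22:30591882-30591907, minus strand): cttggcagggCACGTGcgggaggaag
LTV1 (chr6:143843356-143843381, plus strand): cctggggctgCACGTGtggtgaggcc
NOP14 (chr4:2963376-2963401, minus strand): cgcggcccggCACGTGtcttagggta
GNL2 (chr1:37595919-37595944, minus strand): acgtcgtgcaCACGTGgtccggcgtg
BYSL (chr6:41921517-41921542, plus strand): cttcagtcccCACGTGcgatccttcc
FBL (chr19:39846358-39846383, minus strand): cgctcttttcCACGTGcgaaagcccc
The base before the E-box was G in 6 of these sites, C in 3, A in 3 and T in 0. All 12 genes had a fold change above 0, with a median of 0.47. The other 28 genes with a window had a median of 0.33, and 25 of them were above 0. For E-boxes upstream of the start, the 4 genes that have one had a median of 0.33. The 36 without, among them the 12 genes above, had 0.36. A fold change of 1.5 was reached by 0 of the 4 and 8 of the 36. With both kinds counted, the 16 genes with an E-box had a median of 0.41 and the 24 with neither kind 0.33. There 3 of the 16 and 5 of the 24 reached 1.5-fold. Over all genes tested, 126 had an E-box at or after the start and a median of 0.20, with 86 above 0. The other 7881 had a median of 0.01. Among the same genes, the 757 with an upstream E-box had a median of 0.04, and those without had 0.01. These values describe the table and were not tested.

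**Figure D3:**
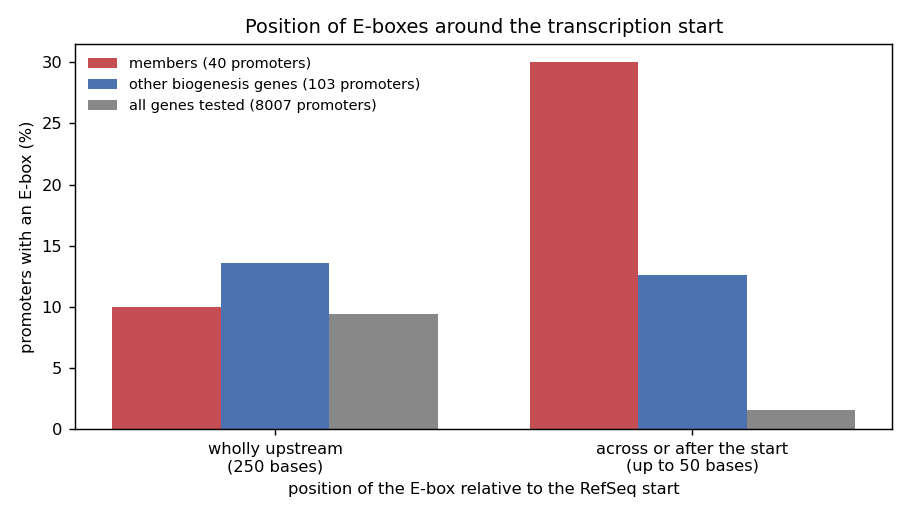
Percentage of RefSeq promoter windows with an E-box wholly upstream of the start (left) or across or after it (right), for 40 of the 48 genes (red), 103 other ribosome biogenesis genes (blue) and 8007 genes tested (grey). Left bars stand at 10%, 13.6% and 9.45%, and right bars at 30%, 12.6% and 1.57%.

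The same windows were searched for 2 other motifs. The ETS-type motif CCGGAAGT, searched on both strands, was in 8 of the 40 promoters (20%) and in 10.1% of the 8007. The 8 genes had a median of 0.33, and the 32 without it 0.36. The pair of inverted heat shock units GAANNTTC, part of the site that heat shock factors bind, was in 2 of the 40 (5%), those of POLR1A and GNL2, and in 4.40% of the 8007, on both strands. The N stands for any base, no other base was allowed to differ, and neither motif holds the E-box; a window without a match says only that these letters are not in it. By the authors' deposited table, the fold change of MYC itself was 0.31 on the log2 scale (implied SE 1.03), at 373 RPKM. NOP10 was the 1 gene whose window held 2 E-boxes, and its log2 fold change of 0.16 lay below the median of the 48.

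Transcription of ribosomal RNA was represented by 7 genes, 5 of them above 0, with a median of 0.29. By the authors' deposited table, UBTF, the factor that keeps ribosomal DNA open and loads the polymerase, stood 1.53-fold higher, at 27.7 RPKM (log2 0.61, implied SE 0.88). The catalytic subunit genes POLR1A and POLR1B had log2 fold changes of 0.40 and 0.29 there, and differed from each other by 0.11 with an implied SE of the difference of 1.30. POLR1C, a subunit shared with RNA polymerase III, had 0.34, and RRN3, which recruits the polymerase to the promoter, had 0.16. The genes below 0 were POLR1E, a polymerase subunit, at -0.04, and TAF1D, a part of the promoter factor SL1, at -0.31, the lowest of all 48. TAF1D lies in a span that also holds 8 snoRNA genes and overlaps 2 genes of at least 1 RPKM on the other strand, C11orf54 and KIAA1731. RRN3 has 3 pseudogene rows, 2 of them at 1 RPKM or more and the highest at 2.58 RPKM, against 10.3 RPKM for RRN3, so reads may be split between them.

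All 4 box C/D snoRNP genes were above 0, with a median of 0.47. RRP9, a protein of the U3 snoRNP that is needed for the first cuts of the precursor, stood 1.94-fold higher by the authors' deposited table, at 56.7 RPKM (log2 0.96, implied SE 1.06; chromosome 3, 51967446 to 51975957 on hg19). NOP56, a core protein, was 1.71-fold higher there (log2 0.78, implied SE 0.94). Its paralog and partner NOP58 had 0.16, and FBL, the methyltransferase fibrillarin, had 0.11 at 107 RPKM. NOP56 and NOP58 sit side by side in the same particle, and their log2 fold changes differed by 0.61 with an implied SE of the difference of 1.30. The widest gap among the 4, RRP9 minus FBL, was 0.85 with an implied SE of 1.42, so both gaps are smaller than their errors. The implied SE of a difference assumes that the errors of the genes are independent.

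The genes of the core H/ACA snoRNP proteins were all 4 above 0, with closely similar values except for GAR1. The pseudouridine synthase gene DKC1 stood at 0.16 on the log2 scale by the authors' deposited table, NOP10 had 0.16, NHP2 had 0.17 and GAR1 had 0.36. These proteins also belong to telomerase. Their levels ran from 31.0 RPKM for GAR1 to 122 RPKM for NHP2.

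The abundant nucleolar proteins were the group nearest to 0, with a median of 0.037 and 2 of 4 genes above 0. NPM1, the nucleophosmin chaperone and the most abundant of the 48 genes at 253 RPKM, stood at -0.19 on the log2 scale by the authors' deposited table (implied SE 1.11). NCL, nucleolin, had 0.21 at 176 RPKM, NOLC1, a snoRNP chaperone, had 0.13, and DDX21, an RNA helicase, had -0.06. The table lists 45 NPM1 pseudogene rows, the highest at 0.101 RPKM. Across the 48 genes the Spearman correlation between RPKM and log2 fold change was -0.09, against 0.19 over all 11324 genes tested. The 48 stood apart in level, with a median of 25.6 RPKM against 6.76 RPKM over all genes tested, and 43 of them lay above the median of all genes; the genes share the same libraries and are not independent points.

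All 8 genes of the small-subunit processome were above 0, between 0.26 and 0.56, with a median of 0.42. UTP20, a large scaffold protein, was the highest of them by the authors' deposited table, with 0.56 on the log2 scale (implied SE 1.07) and 3.86 RPKM. WDR43, UTP15 and WDR75 form part of the subcomplex that binds the start of the precursor, and had 0.51, 0.36 and 0.26. PWP2, of the next subcomplex to join, had 0.50, and DDX10, a helicase, 0.48 at 2.98 RPKM, the lowest level of the 48 genes. UTP14A, which activates a helicase in yeast, had 0.35, and NOP14, a core assembly factor, had 0.30. The group was also compact, with 4 of the 8 in the top decile of all fold changes and none 1.5-fold higher.

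The 6 late factors of the small subunit were above 0 as well, with a median of 0.30. PNO1, which holds the site of the last cut until the endonuclease acts, stood 1.85-fold higher by the authors' deposited table, at 20.3 RPKM (log2 0.89, implied SE 0.99; chromosome 2, 68384976 to 68403370 on hg19). NOB1, the endonuclease that makes that cut, had 0.12, with 39.4 RPKM. TSR1, a GTPase-like factor that in yeast blocks early joining of the subunits, had 0.57. LTV1, which leaves the precursor late, had 0.37, BYSL, bystin, which processes the precursor RNA, had 0.22, and RRP12, an export factor in yeast, had 0.13. TSR1 stood just below the 1.5-fold line of 0.58, as did MRTO4 at 0.58 (1.49-fold), while RRP1B stood just above it at 0.60 (1.51-fold).

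The large-subunit group held 6 of the 10 genes that were at least 1.5-fold higher, and all 15 of its genes were above 0, with a median of 0.45. By the authors' deposited table, NOP16 stood 2.11-fold higher, at 24.8 RPKM (log2 1.08, implied SE 1.11; chromosome 5, 175810949 to 175815976 on hg19) and ranked at the 99.2 percentile of all fold changes. Its span overlaps HIGD2A on the other strand, which had 141 RPKM and a log2 fold change of 0.08. No source used here states the strand setting of the counts, so reads of the pair may not be told apart. The part of HIGD2A in the value of NOP16 was not tested. NOP2, a methyltransferase of the large ribosomal RNA, was 1.78-fold higher there (log2 0.83, implied SE 1.01; chromosome 12, 6666029 to 6677857 on hg19). RRS1, which brings the 5S ribosomal RNA particle into the precursor, had 0.70 with 64.8 RPKM. PPAN, a factor of large-subunit RNA processing, had 0.62, but overlaps the read-through gene PPAN-P2RY11 and P2RY11 on its own strand, and its counts may hold their reads. MRTO4, a placeholder for a stalk protein, had 0.58, WDR74, whose release from the precursor is a step of maturation, 0.32, EBNA1BP2, a partner of early assembly, 0.31, GNL2, an export GTPase, 0.25, GNL3, nucleostemin, 0.15 and DDX18, a helicase, 0.12.

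The PeBoW complex, which matures the large subunit, was made up of PES1 at 0.45, WDR12 at 0.36 and BOP1 at 0.24 in the authors' deposited table, with levels of 38.3, 6.12 and 140 RPKM. Subunits of the same complex thus differed in fold change by less than their implied SEs of 0.90 to 1.20. RRP1 and RRP1B are paralogs that lie near PWP2 on chromosome 21, between 45079429 and 45551063 on hg19. Their log2 fold changes were 0.77 and 0.60, with PWP2 at 0.50, and RRP1 minus RRP1B was 0.18 with an implied SE of the difference of 1.28. The 48 genes lay on 19 chromosomes, counting chromosome 21, with 9 on chromosome 2.

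Other genes of the pathway had a like but smaller distribution. Of 132 ribosome biogenesis genes outside the 48 that reached 1 RPKM, 108 were above 0 (81.8%), 16 were at least 1.5-fold higher (12.1%), 1 was 1.5-fold lower and the median was 0.24. Among the other small-subunit factors 38 of 44 were above 0, with a median of 0.26, led by WDR3 at 0.90, the helicase gene DHX37 at 0.89, ESF1 at 0.86 and NOL6 at 0.83 in the authors' deposited table. Among the other large-subunit factors 39 of 46 were above 0, with a median of 0.27, led by SURF6 at 1.04, CCDC86 at 0.82, PAK1IP1 at 0.68 and FTSJ3 at 0.66 there. RSL24D1, a placeholder protein of the late large subunit, was the 1 gene that was 1.5-fold lower (-0.59), and it was picked out after its value was seen. The remaining RNA polymerase I subunits and factors had 11 of 15 above 0 and a median of 0.23, with CD3EAP, now called POLR1G, at 0.73, ZNRD1, now POLR1H, at 0.47, TCOF1 at 0.43 and POLR2L at 0.41. A list of snoRNP assembly factors also held the core protein gene NHP2L1 and GLTSCR2, a large-subunit factor. This list had 10 of 13 genes above 0 and a median of 0.14. In it RUVBL2 stood at 0.56, SHQ1 at 0.44, NUFIP1 at 0.30 and ZNHIT3 at -0.29.

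The RNA exosome, which trims RNA precursors from the 3′ end, had 10 of its 14 genes above 0, with a median of 0.14 and 0 genes 1.5-fold lower. Its 4 largest fold changes lay on both sides of 0, each smaller than its implied SE: the authors' deposited table put EXOSC4 at 0.79 and EXOSC7 at 0.59 but EXOSC8 at -0.56 and EXOSC9 at -0.42. RNA polymerase III makes the 5S ribosomal RNA and transfer RNAs. A list of its subunits, its transcription factors and its repressor MAF1 had 15 of 19 genes above 0 and a median of 0.20. Among its subunits, POLR3G stood at 0.45, POLR3K at 0.40 and POLR3C at -0.41. A mixed list of 6 genes, MYC with related regulators and NPM3, had 5 above 0 and a median of 0.21. In it MYCN stood at 0.47, NPM3 at 0.25 and MTOR at 0.17 beside MYC. PTRF, UBTFL1 and MYCL did not reach 1 RPKM.

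The proteins that ribosomes are built from had other values than the factors that assemble them. Of the 48 assembly and transcription genes 91.7% were above 0, against 21 of 81 cytosolic ribosomal protein genes (25.9%), whose median was -0.09. Mitochondrial ribosomal protein genes had 52 of 72 above 0 and a median of 0.08. None of the cytosolic and 1 of the mitochondrial ribosomal protein genes was at least 1.5-fold higher. All these values rest on the same libraries, and whether the lists differ was not tested.

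**Figure D4:**
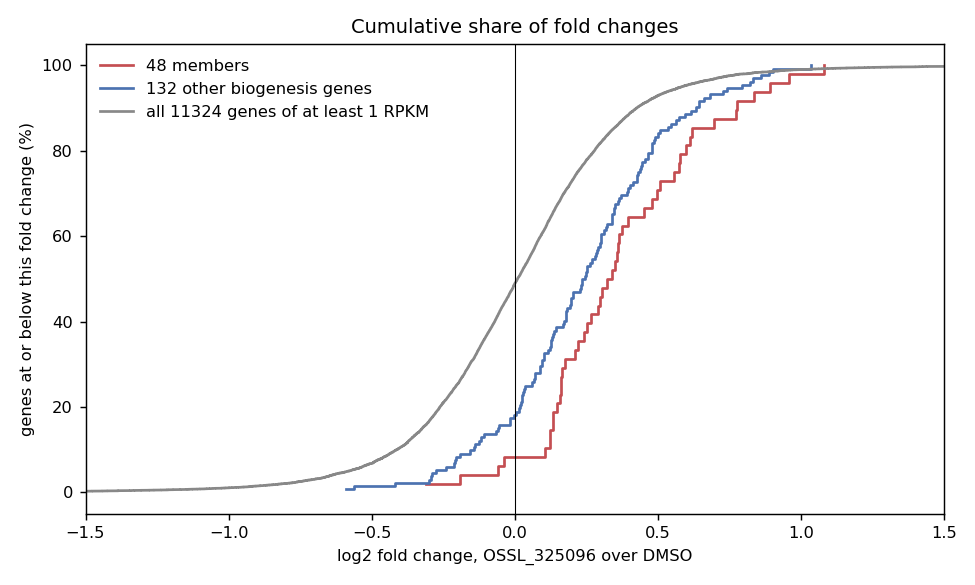
Cumulative percentage of genes at or below each log2 fold change, for the 48 genes (red), 132 other ribosome biogenesis genes (blue) and all 11324 genes tested (grey). The red curve lies right of the blue one over most of its range and both lie right of the grey one, with medians of 0.33, 0.24 and 0.01.

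Fold changes in the whole table moved with the GC content of transcripts, with a Spearman correlation of 0.47 over 11104 genes, and it was 0.35 over the 48. The median GC content of the 48 genes was close to that of all genes tested, 49.3% against 50.2%. The 48 were not spread evenly, and only 3 lay in the quintile with the highest GC content. In each quintile of GC content their median lay above that of all genes. In the quintile with the lowest GC content 12 of the 48 had a median of 0.21, against -0.17 over all genes there, and 9 of the 12 were above 0. In the next quintile 9 genes had a median of 0.25, against -0.12 over all genes. In the middle quintile 10 genes had 0.34, against -0.0028 over all genes, and in the next 14 genes had 0.47, against 0.13. In the quintile with the highest GC content 3 genes had 0.62, against 0.23 over all genes. Once the trend with GC content, length and level was removed, 41 of the 48 were above 0 with a median of 0.35, where 50.2% of all genes were above 0. PNO1 was then the highest of the 48 at 0.98, NOP16 had 0.94, and TAF1D remained the lowest at -0.11.

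**Figure D5:**
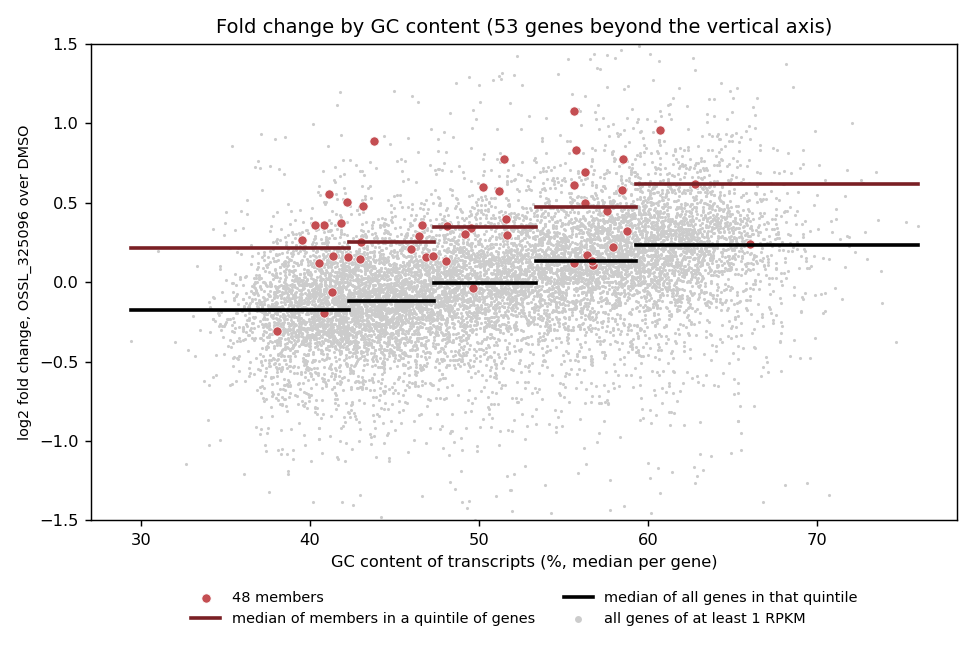
GC content of transcripts (percent, median per gene) against log2 fold change for the 48 genes (red) and all genes tested (grey, with 53 beyond the vertical axis); horizontal lines are medians in quintiles of GC content, dark red for the 48 genes and black for all genes. The dark red line lies above the black one in each quintile, from 0.21 against -0.17 in the lowest to 0.62 against 0.23 in the highest.

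The spans of 9 of the 48 genes hold 34 snoRNA genes on the same strand: TAF1D, NOP56, NOP58, DKC1, NCL, WDR43, TSR1, GNL3 and PPAN. By the authors' deposited table, the 9 host genes had a median of 0.21 on the log2 scale, with 8 above 0, and the 39 other genes had 0.34. The snoRNAs themselves could not be followed, since 0 of the 34 reached 1 RPKM and 2 of 805 snoRNA rows had a fold change; the libraries were made from poly(A)-selected RNA, and most snoRNAs carry no such tail.

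The labels of the cells were checked against marker genes over both lines. All 7 plasma cell markers were measured, between 6.26 RPKM for SLAMF7 and 180 RPKM for XBP1. Of the 7, 6 had a log2 fold change below 0 by the authors' deposited table: CD38 stood at -0.73, IRF4 at -0.67, TNFRSF17 at -0.66, PRDM1 at -0.36, SLAMF7 at -0.08 and XBP1 at -0.02. SDC1, syndecan-1, stood at 0.60. The first 3 were at least 1.5-fold lower and SDC1 at least 1.5-fold higher, against 4.95% of all genes tested in each direction, each fold change was smaller than its implied SE, and their part in the results on the 48 genes was not tested. The line markers CCND1, FGFR3, WHSC1 and MAF had 22.7 to 555 RPKM and, by the authors' deposited table, 0.05 to 0.39 as log2 fold changes. CD3E, CD14, LYZ and COL1A1, markers of T cells, monocytes, myeloid cells and fibroblasts, had at most 0.0959 RPKM. EPCAM, an epithelial marker, had 15.8 RPKM with a log2 fold change of -0.18, and its part in these results was not tested.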

How the data were processed

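RNA was sequenced from 4 libraries. Per the labels' protocols it was poly(A)-selected with oligo(dT) beads and fragmented before cDNA synthesis. Per the series' design text, reads were mapped to hg19 and Biomedical Genomics Workbench 5 gave the RPKM values and compared the treatments; its counting rule, strand setting, scaling and model are not stated. The RPKM column deposited by the authors is the mean of the higher treatment group, the log2 fold change and the signed fold score were deposited by the authors, and so were the unadjusted, false discovery rate and Bonferroni p-values. These deposited values took the place of a limma fit, which needs single libraries.

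Genes with at least 1 RPKM were kept (11324), and Benjamini-Hochberg adjustment was recomputed over them. The trend was removed by regression on terms up to degree 3 of GC content and of the log2 of length and RPKM. GC content and length were medians over a gene's GENCODE 44 transcripts (98.1% of genes). The trend explained 15.8% of the variance. The regression was tried on simulated data with a linear trend in GC content alone. That trial says nothing about trends with length and level. The 48 identifiers all overlapped their GENCODE 44 entry on GRCh37. Pseudogenes were found by symbol. Promoter sequences are RefSeq's, on GRCh38.p14, and their coordinates are not on the build of the table.

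The genes and lists were chosen with earlier results of these data known, and lists are described without a test. All 48 genes are named, with up to 4 of each other list by absolute log2 fold change, MYC and the marker genes; the value of 1 such gene is not reported here. Ribosomal protein genes were taken by symbol. For promoters, the gene with an upstream E-box and the highest fold change and the 2 highest without one were shown. The labels do not give the number of cultures and the model is not stated. What spread the p-values measure is therefore not known, and it may hold the difference between the lines. Depth is unknown and no counting interval is given. Python 3.11.15, pandas 2.3.3, numpy 2.4.6, scipy 1.17.1 and matplotlib 3.10.9 were used.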

Additional observations from a re-analysis of the deposited data

How the results depend on the processing

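Of 40 alternatives for the counts and medians of the 48 genes and their role groups, 37 stayed within 1.5 times the reported value and 0 changed direction. Many of the 40 could hardly move. Dropping the minimum of 1 RPKM could change nothing, since all 48 genes passed it. The minimum of 5 RPKM kept 46 of the 48, and centring on the median of all genes shifted each value by only 0.00868. The count of 37 is therefore no measure of how stable the results are. Without genes that have pseudogene rows or overlap another row on their strand, 27 of 28 remaining genes were above 0 and the median was 0.35. With a threshold of 2-fold in place of 1.5-fold, 1 gene was higher. The median of the nucleolar scaffold and chaperone proteins was 0.077 once the trend with GC, length and level was taken out, and 0.037 as deposited; these 4 genes lie close to 0 in both. Without genes that overlap an expressed gene on the other strand, chosen after seeing the data, 33 of 36 were above 0. The share of promoters with an E-box depends on the window: it was 10% in the 40 promoters for upstream bases alone and 40% with the 50 bases after the start, which were added after the upstream count was seen. No paired analysis was possible because the table holds no values of single libraries; leaving out a replicate and each line on its own were not run for the same reason.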
